A study of Mus musculus with 21 samples.

Results

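M12GFP (M12) is a mouse breast cancer cell line derived from a spontaneous lung metastasis of E0771GFP cells, and it was compared here with the E0771GFP line itself (parental) across all genes. The comparison rests on 6 of the 21 libraries of the series, M12 replicates 1 to 3 and parental replicates 1 to 3, taken by their labels. E0771 is an established mouse mammary tumour line, and every group of the series carries GFP. Both groups are labelled as breast cancer cells with no treatment, grown in RPMI 1640 with 10% calf serum with iron and 1% penicillin/streptomycin. Polyadenylated RNA went into a stranded library kit. A second line from a spontaneous lung metastasis, M11GFP (M11), and E0771GFP cells with an empty vector, 3 libraries each, are used below to show where M12 differs. The labels give no age, sex or number of host animals, do not say whether M12 is a clone, and do not say whether the 3 libraries came from separate cultures. With 1 line on each side, lung metastatic origin and any other difference between M12 and the parental culture cannot be told apart. The p-values measure only the spread between libraries, estimated over all 21 of the series.

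The 3 M12 libraries held 33119453, 44091368 and 44028878 expected counts, against 42115816, 44136811 and 34323594 in the parental libraries. Parental replicate 1 stood apart: Gm42418, a gene that overlaps ribosomal RNA sequence, took 14% of its counts, against at most 0.0918% in any other library of the series. The same library held 209 CPM (counts scaled to library size) of Rmrp, the RNA of the mitochondrial RNA processing endoribonuclease, against at most 0.502 CPM in the other parental and the M12 libraries. Without parental replicate 1, the log2 fold change of Rmrp was -0.75 and was not past the threshold, so its change over all 3 libraries, -8.09, rests on that library. The variance between 2 replicates, averaged over genes, was 17.9 to 611 times the sampling noise of their counts. The libraries thus differed by more than counting error, which does not show whether they came from separate cultures. The values of 611 and 573 belong to pairs with parental replicate 1, whose Gm42418 count enters the average. Pairs without that library stood at 17.9 to 67.1. CPM below are scaled by edgeR's TMM method.

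The label of breast cancer cell was set against textbook markers. The simple-epithelium keratin gene Krt8 stood at 186, 107 and 168 CPM in M12 and 165, 191 and 209 CPM in parental libraries, and its change was not past the threshold (adjusted p = 0.112). Vim, the mesenchymal intermediate filament gene, was at 2740, 2170 and 2840 CPM in M12, against 2720, 2310 and 2190 CPM in parental cells (adjusted p = 0.552). Cdh1, which encodes the epithelial adhesion protein E-cadherin, had 11 reads over the M12 libraries and 8 over the parental ones. The oestrogen receptor gene Esr1 was at or below 0.227 CPM in both groups. Both groups thus held a keratin, abundant vimentin and almost no E-cadherin mRNA. The other markers checked, Krt18, Epcam and Erbb2, did differ between the groups. Their log2 fold changes were 5.54, 2.92 and -0.77, and Krt18 and Epcam were at most 0.114 and 0.296 CPM in parental cells. Of the defining markers of other cells that a lung nodule could hold, Ptprc (CD45, all leukocytes) had 1 read over the M12 libraries and 0 over the parental ones, and Cd3e, Ms4a1, Scgb1a1, Nkx2-1 and Dcn had 0 in both. Others had more reads in M12: Adgre1, Itgam, Csf1r, Pecam1 and Cdh5 had 3, 10, 14, 44 and 53, against 0, 6, 8, 14 and 8. Sftpc, Sftpb and Col1a2 had 0 reads in M12, against 1, 1 and 5, and Lum had 2 in both.

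Metastatic lines from one tumour line are used to study which expression changes accompany spread. Matrix proteins and the proteases that cut them shape the tissue around a tumour cell. Interferon-stimulated genes are switched on by a transcription factor complex that includes IRF9, below the type I interferon receptor and carry antiviral and immune functions. NF-kB is the transcription factor family below TNF and interleukin-1 receptors that drives chemokine genes, among them Cxcl2.

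In M12, 3847 of 15432 tested genes were higher than in parental cells and 3890 were lower at an adjusted p under 0.05 (edgeR quasi-likelihood test, Benjamini-Hochberg adjustment). That is 50.1% of tested genes, 24.9% higher and 25.2% lower, and these shares are the background for the main counts of every list below. Changes of at least 2-fold numbered 1428 upwards (9.25%) and 941 downwards (6.1%), 15.4% of tested genes together. Among genes tested, 7374 (47.8%) had M12 and parental libraries that did not overlap. The even split held under other scalings of the counts, with 50.9% of calls higher with DESeq2 size factors and 48.2% with upper-quartile scaling. It changed on the TPM scale given next. On log2(TPM + 1), which corrects for gene length and fixes the sum of each library, 5556 genes were higher and 1560 lower, so 78.1% of calls were higher against 49.7% on counts. The median over all genes moved to 0.17 on that scale, against -0.01 on counts. Gm42418 takes part in the fixed sum, with a mean of 33000 TPM (SD 56000) in parental cells and 351 TPM in M12. Its part in the shift was not tested. Where that scale moved the split of a list's calls by more than 10 percentage points, its counts there, called the TPM counts below, follow the main ones. The background of the TPM counts is the 5556 higher and 1560 lower of 15432 genes on that scale, and that of list medians there is 0.17.

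**Figure D1:**
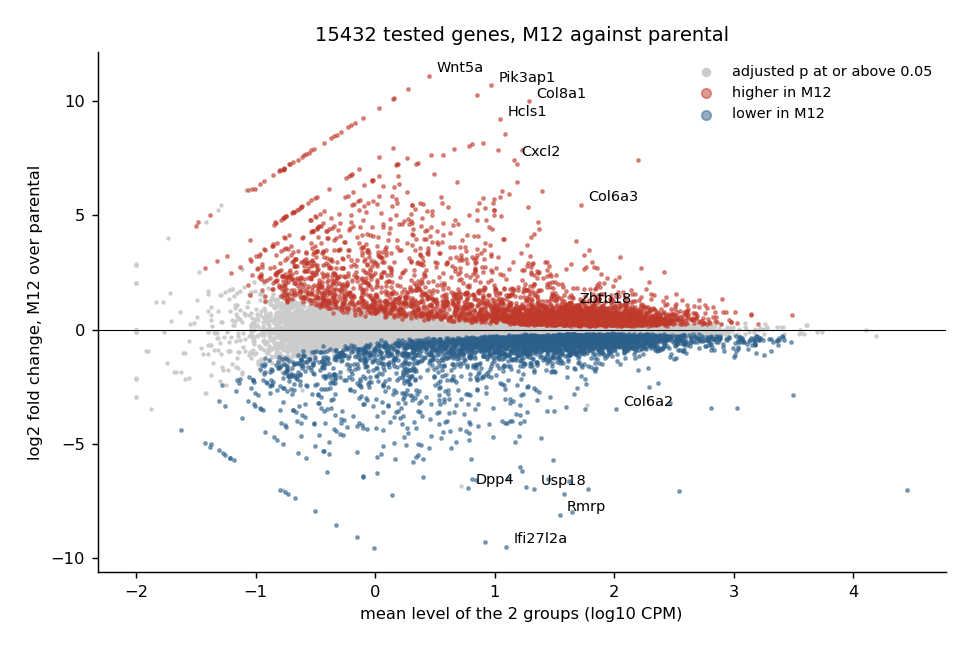
Each point is a tested gene, plotted by its mean level in the 2 groups (log10 CPM, levels under 0.01 CPM drawn at 0.01) and its log2 fold change in M12 over parental. Red genes were higher and blue genes lower at an adjusted p under 0.05, grey genes did not pass. Wnt5a, Pik3ap1 and Col8a1 lie at the top, and Ifi27l2a, Rmrp, Usp18 and Dpp4 at the bottom.

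The 3 genes given with this comparison as its markers, Wnt5a, Col8a1 and Cxcl2, were all higher in M12. Wnt5a (ENSMUSG00000021994.15, chromosome 14, 28504750 to 28527448, plus strand, build mm10), a ligand of mostly non-canonical Wnt signalling, had 4.69, 6.96 and 5.45 CPM in M12 and 0 reads in every parental library. Against a floor of 3 counts over the parental group it was at least 221-fold higher (adjusted p = 1.75e-09). Wnt5a was also low outside M12, with means of 0.248 CPM in M11 and 0.0217 CPM in empty vector cells. Col8a1 (ENSMUSG00000068196.5, chromosome 16, 57624258 to 57754737, minus strand), which encodes a short-chain collagen of vessel walls and membranes, had 39.3, 44.7 and 31.2 CPM in M12, against 0.113, 0 and 0 CPM in parental cells. Its log2 fold change was 9.99 (SE 0.53, adjusted p = 3.27e-10), and 13.87 without parental replicate 1 or 9.32 without parental replicate 2, since so few parental reads set the denominator. Its mean was 0.122 CPM in M11, and the difference between M12 and M11 was itself past the threshold (8.11, SE 0.45, adjusted p = 2.68e-09).

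Cxcl2 (ENSMUSG00000058427.10, chromosome 5, 90903871 to 90905938, plus strand), a neutrophil-attracting chemokine, was the most uneven of these. It had 23.4, 61 and 2.67 CPM in M12, against 0.198, 0.16 and 0.142 CPM in parental cells. Every M12 library lay above every parental library, but M12 replicate 2 held over 20 times the level of replicate 3. The log2 fold change was 7.43 (SE 1.3, adjusted p = 0.00016), and 6.27 without M12 replicate 2.

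The 12 largest rises among genes at 5 CPM or more included Wnt5a, Pik3ap1, Art3, Col8a1, Hcls1, Ccbe1, Gldc, Lrmp, Lrrn3, Adam19 and Inpp4b. Some of these are best known from blood cells. Pik3ap1, the B-cell adaptor that links receptors to PI3-kinase, had 21.8, 20.4 and 14.1 CPM in M12, against 1 read over all parental libraries (ratio 2110, 95% counting interval 379 to 83600). Hcls1, a cortactin-like protein that binds actin in blood cells, had 23, 26.8 and 16.9 CPM in M12, against 0.0566, 0.0228 and 0.0284 CPM in parental cells (log2 fold change 9.21, SE 0.43). Neither gene's groups overlapped.

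Adam19, a membrane-anchored metalloprotease, had 46.3, 27.1 and 27.2 CPM in M12, against 0.198, 0.137 and 0.0852 CPM in parental cells (log2 fold change 7.88, SE 0.38, adjusted p = 2.04e-10). Inpp4b, a phosphoinositide phosphatase, had 22.3, 25.9 and 15.2 CPM in M12, against at most 0.114 CPM in parental cells (7.87, SE 0.44). Ccbe1, a secreted factor that promotes lymphatic growth, had 32.8, 22.9 and 17.8 CPM in M12 and at most 0.0852 CPM in parental cells (8.58, SE 0.46). The metabolic gene Gldc, a part of the glycine cleavage system, had 14.3, 17.8 and 15.4 CPM in M12, against at most 0.0912 CPM in parental cells (8.18, SE 0.47, and 8.99 without parental replicate 2). Art3, an ectoenzyme-family gene, had 10.9, 19.9 and 11.6 CPM in M12 and 1 read in parental cells (ratio 1660, interval 297 to 65500). These genes were near silent in parental cells and measurable in each M12 library. In all, 45 genes averaged at least 2 CPM in M12 and under 0.1 CPM in parental cells, 39 of them with an official name, and 15 genes showed the reverse pattern, 14 of them named.

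**Figure D2:**
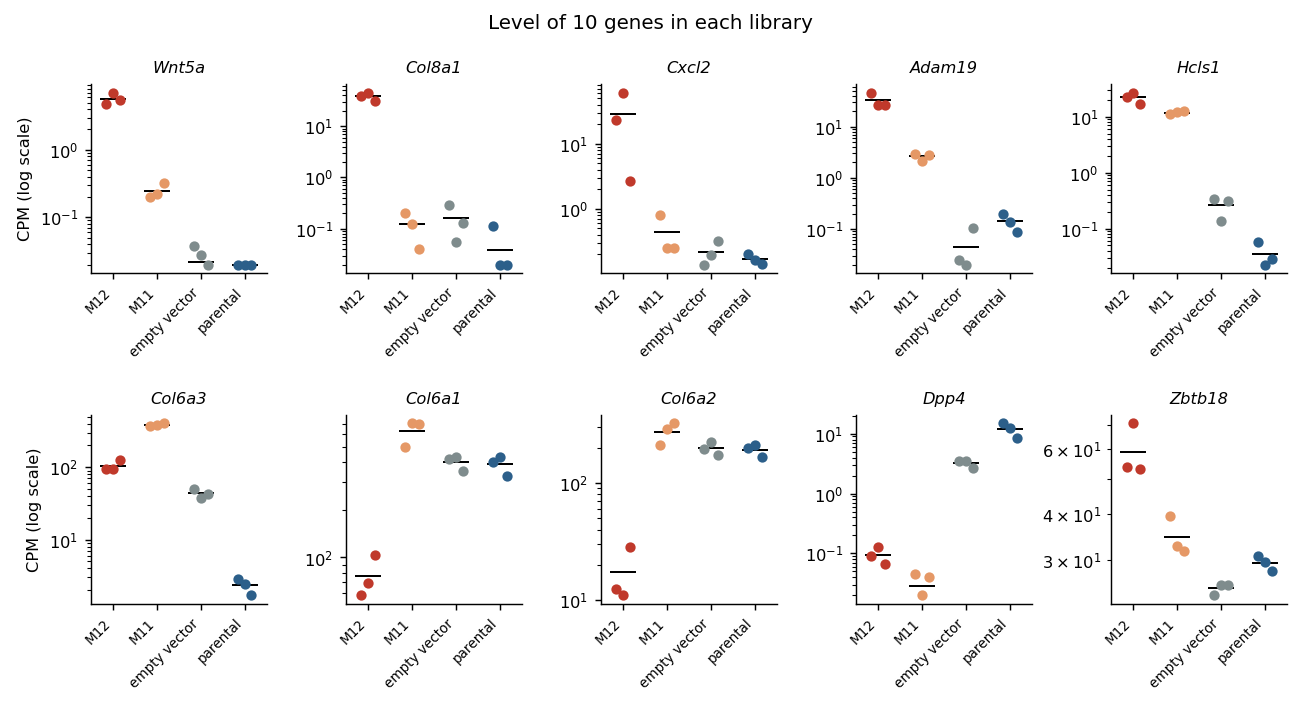
Level of 10 genes in each library (CPM, log scale, values under 0.02 drawn at 0.02), with a bar at the group mean, for M12, M11, empty vector and parental cells, 3 libraries each. Wnt5a, Col8a1 and Cxcl2 were higher in M12 than in every other library shown, while Col6a1 and Col6a2 were lowest in M12 and Col6a3 was lowest in parental cells.

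Among the largest falls, Dpp4 and Serpina11 stood outside the interferon genes described next. Dpp4, the cell-surface dipeptidyl peptidase CD26, had 0.0891, 0.129 and 0.0662 CPM in M12, against 14.9, 12.4 and 8.38 CPM in parental cells (log2 fold change -6.92, SE 0.41, adjusted p = 2.84e-10). Its level was as low in M11, at a mean of 0.0284 CPM, and the difference between the lines was not past the threshold (adjusted p = 0.173). The serpin-family gene Serpina11 had 0, 0 and 0.154 CPM in M12, against 5.52, 5.11 and 4.37 CPM in parental cells (-6.43, SE 0.42, and -10.94 without M12 replicate 3 or -5.79 without M12 replicate 2). The rule for genes switched off also selected mt-Atp6, which had 0, 0 and 0.243 CPM in M12 and 30.6, 0.137 and 0.284 CPM in parental cells. Its change was not past the threshold (adjusted p = 0.0826), and only parental replicate 1 was high.

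Interferon-stimulated genes were lower in M12 nearly without exception. All 48 members of that list were tested, and 46 were lower, 44 of them by a fold of 2 or more, against 25.2% and 6.1% of all tested genes. None was higher. Their median stood at -3.56 on the log2 scale, and at -1.77 on log2(TPM + 1). The members that did not pass were the antiviral gene Oasl1 (adjusted p = 0.147) and the GTPase gene Gbp2 (adjusted p = 0.0723).

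Antiviral effectors were among the largest falls. Oas2, a synthetase of the RNase L activator, had 0.0297, 0.043 and 0 CPM in M12, against 27.2, 19.2 and 3.49 CPM in parental cells, 3 reads against 1923 (ratio 0.00142, 95% counting interval 0.000293 to 0.00416). Ifi27l2a, an interferon-inducible membrane protein gene, had 0.0594, 0.0215 and 0.0221 CPM in M12, against 27.5, 34.4 and 13 CPM in parental cells (log2 fold change -9.5, SE 0.48, adjusted p = 1.83e-12). Samd9l, an antiviral restriction factor, had 0.565, 0.451 and 0.0882 CPM in M12, against 121, 92.6 and 51.2 CPM in parental cells (-7.96, SE 0.37). Usp18, which removes ISG15 from proteins and dampens the receptor, had 0.149, 0.644 and 0.176 CPM in M12, against 79.2, 39.1 and 7.98 CPM in parental cells (-6.95, SE 0.9, and -6.12 without parental replicate 1 or -7.98 without M12 replicate 2). For these genes no M12 library reached a parental one.

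The falls in Cmpk2, Ifi44, Trim30a, Oas3 and Oas1g, between 6.17 and 6.9 on the log2 scale, complete the 12 lowest genes with those named above. Single libraries moved some of these. Cmpk2 stood at -7.79 without M12 replicate 2, against -6.5 with all libraries, and Oas1g at -7, against -6.17. Ifi44 stood at -6.03 without parental replicate 1 and -7.65 without M12 replicate 2, against -6.9. Among transcription factors of the response, Irf7, the interferon-amplifying factor, had a log2 fold change of -4.67, Irf9 of -2.93 and Stat2 of -1.84. The receptor genes upstream changed little or not detectably. Ifnar1, one receptor chain, was higher in M12 by 0.34 (adjusted p = 0.000461), and Ifnar2, the other chain, was at 19.3, 21.9 and 20.2 CPM in M12 and 23.8, 23.3 and 19.2 CPM in parental cells (adjusted p = 0.337). The receptor kinase gene Tyk2 did not pass (adjusted p = 0.342), and Irf3, the factor that starts interferon transcription, was lower by 0.7 (adjusted p = 0.00013).

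The parental libraries differed among themselves in these genes. The summed level of the 48 members was 328, 465 and 333 CPM in M12, against 2870, 1880 and 901 CPM in parental replicates 1, 2 and 3. It was 606, 983 and 853 CPM in M11 and 542, 567 and 654 CPM in empty vector cells. M12 was thus lowest, parental replicate 1 held over 3 times the level of parental replicate 3, and parental replicate 3 lay within the M11 range. Against empty vector cells, whose libraries are not part of the parental group, 13 of the 48 were lower in M12 and 1 was higher, with a median of -0.69, where 60.7% of all genes were called (31.2% higher and 29.5% lower, 20.3% by 2-fold or more). Against M11, 32 were lower and none higher, with a median of -1.91, where 17.7% of all genes were lower. The size of the fall thus depended on which cells M12 was set against. Without parental replicate 1 the log2 fold change of Oas3 was -5.79, against -6.54 with it. The high count of Gm42418 fell in the same library as the highest interferon levels, and its part in the result was not tested. With Gm42418 left out of the table, 172 of 172 calls of the named set defined below stayed past the threshold. That run kept parental replicate 1, so it does not show what this library adds. Without parental replicate 1, 169 of 173 calls of the set stayed past the threshold.

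**Figure D3:**
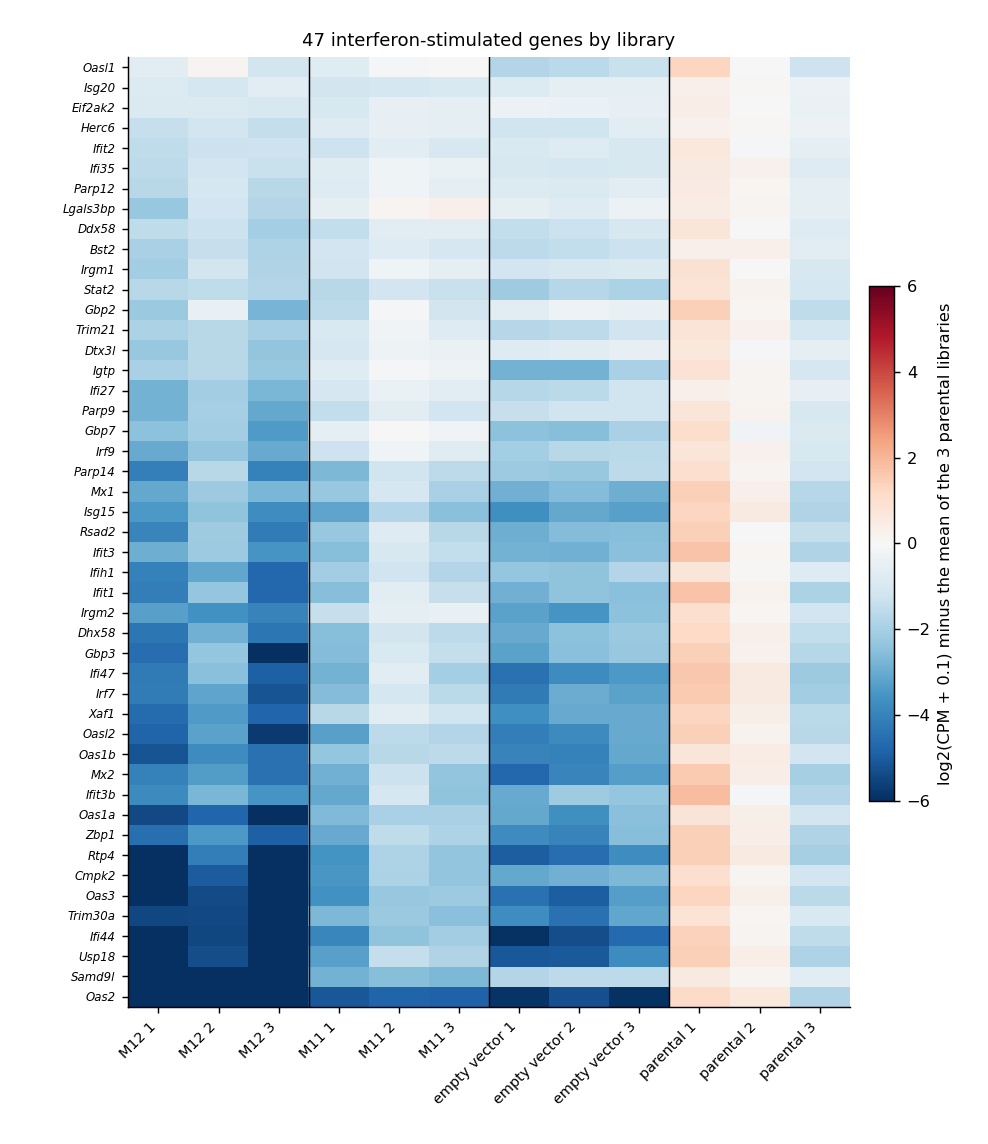
Each row is 1 of 47 of the interferon-stimulated genes, and each column is a library of M12, M11, empty vector or parental cells. Colour gives log2(CPM + 0.1) minus the mean of the 3 parental libraries, from blue (lower) to red (higher), cut at 6 in either direction, and M12 replicates 1 and 3 hold the darkest blue in most of the lower rows.

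The promoters of these genes are shown because the interferon-stimulated response element, the site that this IRF9-containing complex binds, has the core GAAA, 2 bases of any kind, GAAA. Each line is the RefSeq promoter of build GRCm38.p6, from 250 bases before to 50 bases after the start, written 5′ to 3′ on the gene's strand, with matches to the core on either strand in capitals. Isg15, a ubiquitin-like antiviral modifier, lies on chromosome 4 (156200769 to 156201068, minus strand) with 3 overlapping matches as written. Ifit1, an antiviral RNA-binding protein gene, lies on chromosome 19 (34640639 to 34640938, plus strand) with 2 matches on the other strand. Oas3 lies on chromosome 5 (120777610 to 120777909, minus strand) with 1 match.
Isg15: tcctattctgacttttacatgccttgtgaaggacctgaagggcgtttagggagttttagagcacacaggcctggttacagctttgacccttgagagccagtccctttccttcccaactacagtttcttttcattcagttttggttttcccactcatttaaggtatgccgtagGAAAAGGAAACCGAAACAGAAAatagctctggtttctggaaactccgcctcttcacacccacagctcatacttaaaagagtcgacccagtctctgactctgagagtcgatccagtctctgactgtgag
Ifit1: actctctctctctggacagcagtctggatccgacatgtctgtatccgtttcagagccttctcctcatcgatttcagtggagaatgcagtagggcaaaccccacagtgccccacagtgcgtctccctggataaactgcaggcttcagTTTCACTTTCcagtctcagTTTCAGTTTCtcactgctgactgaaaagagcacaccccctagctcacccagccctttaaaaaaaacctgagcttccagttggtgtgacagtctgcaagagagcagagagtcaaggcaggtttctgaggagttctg
Oas3: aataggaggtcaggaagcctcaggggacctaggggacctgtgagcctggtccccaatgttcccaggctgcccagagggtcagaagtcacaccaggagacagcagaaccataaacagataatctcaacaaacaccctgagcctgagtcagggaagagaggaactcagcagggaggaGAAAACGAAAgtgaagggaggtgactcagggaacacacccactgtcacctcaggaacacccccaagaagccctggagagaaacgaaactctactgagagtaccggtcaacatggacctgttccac
Of 42 promoters found for 36 of the 48 interferon-stimulated genes, 21 (50%) held this core, against 396 of 13115 promoters (3.02%) of tested genes. It was in 63 of 817 promoters (7.71%) of genes at least 2-fold lower in M12 and in 37 of 1251 (2.96%) of genes at least 2-fold higher. The lower set includes 44 of the 48 interferon-stimulated genes, so these shares count some of the same promoters and are not independent. Isg15 itself had 3.77, 7.82 and 3.04 CPM in M12, against 102, 60 and 11.7 CPM in parental cells, and Ifit1 had 1.13, 4.27 and 0.728 CPM in M12, against 69.8, 24.8 and 5.62 CPM in parental cells. A match is a description of the sequence and not a bound site.

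MHC class I and antigen processing genes, which interferons also raise, moved less. Of 20 tested, 1 was higher and 6 lower (TPM counts 3 and 2). Without M12 replicate 1, M12 replicate 2 or parental replicate 3 the higher count was 2. Tap1, a subunit of the peptide transporter, had 14.4, 26.1 and 19.1 CPM in M12, against 74.6, 49.1 and 27.6 CPM in parental cells (log2 fold change -1.34, adjusted p = 0.000452), again with parental replicate 3 closest to M12. Psmb10, an immunoproteasome subunit, fell by 1.11, and H2-M3, a non-classical class I gene, rose by 0.92. The median of the list was -0.21, and 0.02 on log2(TPM + 1), where the median of all genes was 0.17.

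The matrix programme changed in both directions. Of 16 collagen genes tested, 4 were higher and 7 lower in M12. The chains of collagen VI, which assemble into 1 fibril, parted: Col6a3 had 93.9, 94.5 and 124 CPM in M12, against 2.83, 2.46 and 1.7 CPM in parental cells (log2 fold change 5.47, SE 0.22, adjusted p = 3.47e-13). Col6a2 had 12.5, 11 and 28.1 CPM in M12, against 198, 211 and 166 CPM in parental cells (-3.47, SE 0.26, adjusted p = 9.54e-09), and Col6a1 had 57.8, 68.9 and 103 CPM in M12, against 403, 430 and 329 CPM in parental cells (-2.34). No library of one group reached the other for any of these chains. M12 was below M11 for each of them, with log2 differences of -1.9 for Col6a3, -3.99 for Col6a2 and -3.04 for Col6a1. The fibrillar collagen gene Col3a1 rose by 2.3 (138, 135 and 276 CPM in M12, against 37.2, 38.5 and 35.8 CPM in parental cells), and Col1a1, low in both groups, fell by 2.96.

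Of 21 matrix glycoproteins and proteoglycans tested, 5 were higher and 13 lower, with a median of -0.79. Spp1 (osteopontin), a secreted integrin ligand, had 568, 391 and 383 CPM in M12, against 84.7, 76.3 and 72.1 CPM in parental cells (log2 fold change 2.53, SE 0.16, adjusted p = 8.13e-11). Emilin1, an elastic fibre glycoprotein, rose by 3.11. Tgfbi, a TGF-beta-induced adhesion protein, had 1.13, 0.73 and 3.02 CPM in M12, against 20, 19.7 and 14.1 CPM in parental cells (-3.44, SE 0.32, and -4.32 without M12 replicate 3). Thrombospondin 2 (Thbs2) and tenascin C (Tnc), matricellular proteins that modulate adhesion, fell by 5.33 and 2.81, and the fall in Thbs2 was 4.74 on the log2 scale without M12 replicate 3.

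Of 13 basement membrane genes, 6 were higher and 3 lower (TPM counts 8 and 0). The laminin chain gene Lamb1 had 134, 96.1 and 113 CPM in M12, against 9.26, 9.83 and 11.9 CPM in parental cells (log2 fold change 3.46, SE 0.21), and Nid1, which links laminin to collagen IV, rose by 1.55. The falls in Agrn (0.54) and Col4a2 (0.34) were small. Neither passed on the TPM scale, and Col4a2 did not pass without M12 replicate 2 or parental replicate 3. Among 14 crosslinking and processing genes, 4 were higher and 5 lower (TPM counts 5 and 3), and 3 were lower without M12 replicate 2. The lysyl oxidases Loxl2 and Loxl3, which crosslink collagen, rose by 1.21 and 1.04, and the procollagen processing enhancers Pcolce2 and Pcolce fell by 1.1 and 0.89.

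Matrix proteases and their inhibitors leaned upwards, with 13 higher and 5 lower of 28 tested. After Adam19, the largest rise at 1 CPM or more was in Adam8, a membrane metalloprotease of blood and tumour cells, with 36.6, 35.1 and 26.6 CPM in M12, against 4.02, 4.47 and 5.68 CPM in parental cells (log2 fold change 2.79, SE 0.16, adjusted p = 8.43e-12). The urokinase gene Plau had 209, 144 and 77.2 CPM in M12, against 35.8, 25.2 and 28 CPM in parental cells (2.27). Mmp28 and Mmp3, both secreted metalloproteases, fell by 4.03 and 2.25. Plau showed the same order among the M12 libraries as Mmp9, which had 14.1, 9.37 and 2.69 CPM in M12, against 2.58, 1.66 and 2.1 CPM in parental cells.

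Of 16 integrins tested, 7 were higher and 2 lower, and 4 were higher without M12 replicate 1. The rises were led by chains known from leukocytes. Itgb2, the shared beta chain of leukocyte integrins, had 42.3, 37.9 and 40.6 CPM in M12, against 2.86, 1.73 and 2.1 CPM in parental cells (log2 fold change 4.18, SE 0.18, adjusted p = 1.47e-13). Itgb7, the beta chain of gut-homing integrins, had 218, 212 and 173 CPM in M12, against 24.4, 17.4 and 24.7 CPM in parental cells (3.18, SE 0.21). Itgal, the partner of Itgb2 on lymphocytes, rose by 2.48, with 4.75, 4 and 4.19 CPM in M12, against 0.765, 0.707 and 0.852 CPM in parental cells. Itgb4 and Itga1, receptors for laminin and collagen, fell by 1.32 and 0.95.

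Cytokine genes leaned upwards at low levels. Of 20 interleukins, colony-stimulating factors and related cytokines tested, 12 were higher and 1 lower. The higher count was 7 without M12 replicate 2 and 6 without parental replicate 2, and the lower count was 2 without M12 replicate 2. Csf1, the macrophage growth factor and the most abundant by CPM, had 278, 383 and 220 CPM in M12, against 118, 105 and 126 CPM in parental cells (log2 fold change 1.33, SE 0.27, adjusted p = 0.000627). Tnfsf13b, the B-cell factor BAFF, rose by 3.39 to 1.22, 1.78 and 1.72 CPM in M12, against at most 0.199 CPM in parental cells. Tnfsf10, the death ligand TRAIL and itself interferon-inducible, fell by 4.25, and by 3.05 without parental replicate 1.

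Of 22 NF-kB target and feedback genes tested, 10 were higher and none lower, and without M12 replicate 2 or parental replicate 3 there were 2 and 1 lower. Their summed level was 802, 1170 and 606 CPM in M12, against 617, 499 and 500 CPM in parental cells, so M12 replicate 2 was highest and M12 replicate 3 overlapped the parental range. Ptgs2, the inducible prostaglandin synthase COX-2, had 10.3, 9.84 and 5.67 CPM in M12, against 0.368, 0.251 and 0.454 CPM in parental cells (log2 fold change 4.6, SE 0.28, adjusted p = 3.16e-11). Vcam1, a leukocyte adhesion receptor, rose by 3.13 (3.39, 1.98 and 0.772 CPM in M12, against at most 0.311 CPM in parental cells). Nfkbia, the inhibitor that NF-kB itself induces, had 109, 238 and 52 CPM in M12, against 46.1, 27.4 and 24.5 CPM in parental cells (2.03, adjusted p = 0.00368). Il1r1, the signalling receptor for interleukin-1, rose by 5.32, with 18.7, 12.6 and 17.1 CPM in M12, against 0.255, 0.433 and 0.511 CPM in parental cells. Against empty vector cells, 3 of the NF-kB genes were higher and 3 lower in M12, where 31.2% of all genes were higher and 29.5% lower.

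Among 14 chemokines tested, 2 were higher (4 without M12 replicate 3) and 2 lower, a smaller share than the 50.1% of all genes. Beside Cxcl2, Cxcl16, a membrane-anchored chemokine, rose by 1.86, and by 1.23 without M12 replicate 2. Ccl5, an attractant of T cells that interferon also induces, fell by 2.19, and by 3.05 without M12 replicate 2. M12 replicate 2 held the highest level of each of these 3 among the M12 libraries.

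The promoter of Cxcl2 is shown with the core of an NF-kB site, GGGA, 4 bases of any kind, CC, on either strand in capitals (RefSeq, GRCm38.p6, chromosome 5, 90903649 to 90903948, plus strand).
Cxcl2: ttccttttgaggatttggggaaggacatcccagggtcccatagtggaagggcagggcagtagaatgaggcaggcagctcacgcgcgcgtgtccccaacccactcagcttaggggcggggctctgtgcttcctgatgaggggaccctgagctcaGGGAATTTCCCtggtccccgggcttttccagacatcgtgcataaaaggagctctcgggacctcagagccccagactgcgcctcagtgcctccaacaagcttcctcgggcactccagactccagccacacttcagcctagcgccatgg
It held 1 match as written and 1 on the other strand, which overlap. The core is common, being present in 3421 of 13115 promoters (26.1%) of tested genes and in 13 of 26 (50%) of the NF-kB list. It was in 333 of 1251 promoters (26.6%) of genes at least 2-fold higher and in 41 of 156 (26.3%) of the named set defined below. The AP-1 core TGANTCA was in 123 of 1251 promoters (9.83%) of genes at least 2-fold higher, in 89 of 817 (10.9%) of genes at least 2-fold lower, in 14 of 156 (8.97%) of the named genes and in 741 of 13115 (5.65%) of tested genes.

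Immediate early genes, which respond to growth signals within minutes, included 18 higher and 8 lower of 32 tested (TPM counts 21 and 4). The feedback inhibitor of receptor tyrosine kinase signalling Spry4 had 106, 94.7 and 89.7 CPM in M12, against 14.7, 15.1 and 16.6 CPM in parental cells (log2 fold change 2.65, SE 0.1, adjusted p = 5.37e-14). The MAP kinase phosphatase genes Dusp1, Dusp5 and Dusp4 rose by 2.44, 1.8 and 1, and the orphan nuclear receptor gene Nr4a3 by 2.77. Egr3 and Klf4, zinc finger factors of the same early response, fell by 2.53 and 1.66. The list held members on both sides.

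Growth factor genes (9 higher and 6 lower of 22, TPM counts 8 and 3) and receptor tyrosine kinase genes (9 higher and 5 lower of 19, TPM counts 8 and 2) changed in both directions, and the median of the growth factors was -0.07, and 0.16 on log2(TPM + 1). Hbegf, an EGF receptor ligand, rose by 1.5 and betacellulin (Btc), another such ligand, fell by 2.63. Among receptors, Flt1 rose by 2.77 to no more than 2.01 CPM in M12, while the collagen receptor Ddr1 and Erbb2 fell by 1.62 and 0.77.

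Of 13 Wnt ligand and secretion genes tested, 3 were higher, among them Wnt5a, and 4 were lower (TPM counts 4 and 2). Wnt7b had 94.3, 54.9 and 98.4 CPM in M12, against 145, 160 and 178 CPM in parental cells (log2 fold change -0.97, adjusted p = 8.18e-05), and Wnt10b fell by 0.67, which did not pass on the TPM scale. Porcn, the enzyme that acylates Wnt proteins for secretion, rose by 1.56. Of 12 Wnt receptors and antagonists, 4 were higher and 1 lower (TPM counts 5 and 0, and 2 lower without M12 replicate 3, parental replicate 1 or parental replicate 2), led by the frizzled receptor Fzd5 (26, 43.6 and 23.5 CPM in M12, against 11.1, 9.35 and 8.55 CPM in parental cells). All 9 tested Wnt target genes passed, 6 higher and 3 lower. The feedback target Axin2 fell by 2.15 and the matricellular target Ccn4 by 3.1, while Apcdd1, a Wnt inhibitor, rose by 2.51 and the transcription factor Tcf7 by 1.73.

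The series manipulates Zbtb18 and Tgfbr2 in other groups, and both were higher in M12 than in parental cells. Zbtb18, a zinc finger repressor (ENSMUSG00000063659.11, chromosome 1, 177442351 to 177450764, plus strand), had 53.8, 70.6 and 53 CPM in M12, against 30.8, 29.7 and 28 CPM in parental cells, a rise of 1 on the log2 scale (SE 0.11, adjusted p = 9.86e-08). It was also higher than in M11 (log2 difference 0.77, adjusted p = 8.49e-06). Tgfbr2, the TGF-beta-binding receptor chain, had 21.3, 17.7 and 18.9 CPM in M12, against 13.2, 13.4 and 14.7 CPM in parental cells (0.49, SE 0.086). Tgfbr1, its signalling partner, had 32.7, 29.5 and 29.1 CPM in M12, against 18.4, 16.7 and 21 CPM in parental cells (0.7, SE 0.1). Against empty vector cells Tgfbr2 was lower in M12 (-0.46, adjusted p = 8.14e-05), so its direction depended on the cells M12 was set against. Of 38 ZBTB family genes, 12 were higher and 7 lower (TPM counts 20 and 1), with the largest rise in Zbtb32 (7.49, 2.56 and 1.46 CPM in M12, against at most 0.142 CPM in parental cells).

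TGF-beta response genes included 5 higher and 9 lower of 21 tested (TPM counts 6 and 5), with a median of -0.06, and 0.07 on log2(TPM + 1). Nedd9, a scaffold of focal adhesions, had 3.18, 2.96 and 2.67 CPM in M12, against at most 0.085 CPM in parental cells (log2 fold change 5.73, SE 0.51), and Ltbp2, a matrix relative of the TGF-beta binding proteins, rose by 3.91. Tgfbi and Ccn4, given above, were the lowest of that list. Of 27 pathway components, 12 were higher and 10 lower (TPM counts 12 and 6). Bmp7, a BMP ligand, had 9.83, 10.7 and 11.1 CPM in M12, against 1.05, 1.07 and 0.738 CPM in parental cells (3.46, SE 0.34), and the BMP antagonist Chrd fell by 2.7. Tgfb3, a TGF-beta ligand, fell by 1.55.

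Of 17 Notch pathway genes, 7 were higher and 3 lower (TPM counts 9 and 2). The ligand gene Dll1 had 11.8, 15.4 and 9.84 CPM in M12, against 1.78, 1.3 and 1.65 CPM in parental cells (log2 fold change 2.97, SE 0.24), and the receptor gene Notch4 rose by 3.2. Hes1 and Nrarp, both direct targets of Notch, fell by 1.61 and 1.08. Of 36 axon guidance genes, 11 were higher and 9 lower (TPM counts 14 and 7), near the background. Slit1, a repulsive guidance ligand, rose by 4.08 and Netrin 4 (Ntn4) fell by 4.3.

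Epithelial genes were split, with 8 higher and 7 lower of 21 tested (TPM counts 10 and 5) and a median of -0.07, and 0.17 on log2(TPM + 1). Krt18, the partner of Krt8, rose from near silence, with 4.16, 2.15 and 2.71 CPM in M12, against at most 0.114 CPM in parental cells (log2 fold change 5.54, SE 0.6, and 6.2 without parental replicate 3). Epcam, an epithelial adhesion molecule, rose by 2.92 to 1.34, 1.8 and 2.01 CPM in M12, against at most 0.296 CPM in parental cells. It was higher still in empty vector cells, at a mean of 3.18 CPM, and in M11, at 2.98 CPM. Esrp2, an epithelial splicing factor, and Tjp3, a tight junction protein, fell by 2.01 and 1.7 at low levels, and Tjp3 did not pass without M12 replicate 1, M12 replicate 3 or parental replicate 1 and stood at -2.77 without M12 replicate 2. Of 22 mesenchymal genes, 9 were higher and 6 lower (TPM counts 12 and 2). The homeobox factor Prrx1 had 125, 122 and 101 CPM in M12, against 16.7, 12.4 and 15.5 CPM in parental cells (2.97, SE 0.14, adjusted p = 4.55e-13), and Snai2 rose by 4.06 to no more than 1.59 CPM. S100a4, a calcium-binding protein tied to motility, fell by 2.07.

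Contractile and actin cytoskeleton genes were higher in 13 and lower in 1 of 27 tested; the lower count was 2 without M12 replicate 1, 3 without M12 replicate 3 and 2 without parental replicate 3. Mylk, the kinase that activates myosin, had 14.6, 13.6 and 14.1 CPM in M12, against 1.5, 1.03 and 1.68 CPM in parental cells (log2 fold change 3.34, SE 0.23, adjusted p = 1.65e-10), and the smooth muscle actin gene Actg2 rose by 4.14. Against M11 the list pointed the other way, with 2 higher and 12 lower in M12, where 17.8% of all genes were higher and 17.7% lower. Of 17 YAP target genes, 7 were higher and 4 lower (TPM counts 8 and 2, and 2 lower without parental replicate 3). Ccn1, a matricellular target, had 71.3, 34.6 and 50.1 CPM in M12, against 13.9, 21.2 and 30 CPM in parental cells (1.26), while its relative Ccn2 fell by 2.19.

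Of 29 genes of a list related to metastasis, 15 were higher and 6 lower (TPM counts 14 and 2), and 12 and 4 by a fold of 2 or more. The lymph node homing receptor Ccr7 had 3.65, 6.74 and 2.1 CPM in M12, against 0.311, 0.228 and 0.256 CPM in parental cells (log2 fold change 3.97, SE 0.43, adjusted p = 1.87e-07). Spp1, Ptgs2, Vcam1 and Loxl2, given above, belong to the same list, as do S100a4 and Tnc on the lower side. Of 12 markers of stem-like tumour cells, 6 were higher and 5 lower (TPM counts 7 and 3). The hyaluronan receptor gene Cd44 rose by 0.88 and the integrin Itgb3 by 2.06, and the efflux pump Abcg2 fell by 3.62, with 0.594, 0.365 and 0.904 CPM in M12, against 10.2, 6.41 and 6.48 CPM in parental cells.

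Among 14 immune checkpoint and evasion ligands, 8 were higher and 1 lower. Without M12 replicate 2 or parental replicate 3 there were 5 higher, and without M12 replicate 3 or parental replicate 1 there were 2 lower. Cd274 (PD-L1) had 10.1, 10.7 and 5.4 CPM in M12, against 6.03, 3.56 and 2.98 CPM in parental cells (log2 fold change 1.06, adjusted p = 0.0116), and it did not pass without M12 replicate 2, parental replicate 2 or parental replicate 3. Ulbp1, a ligand of the NKG2D receptor of natural killer cells, had 161, 133 and 117 CPM in M12, against 51.3, 51.6 and 59.4 CPM in parental cells (1.34, SE 0.11). Lgals9, the ligand of TIM-3, fell by 1.49.

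**Figure D4:**
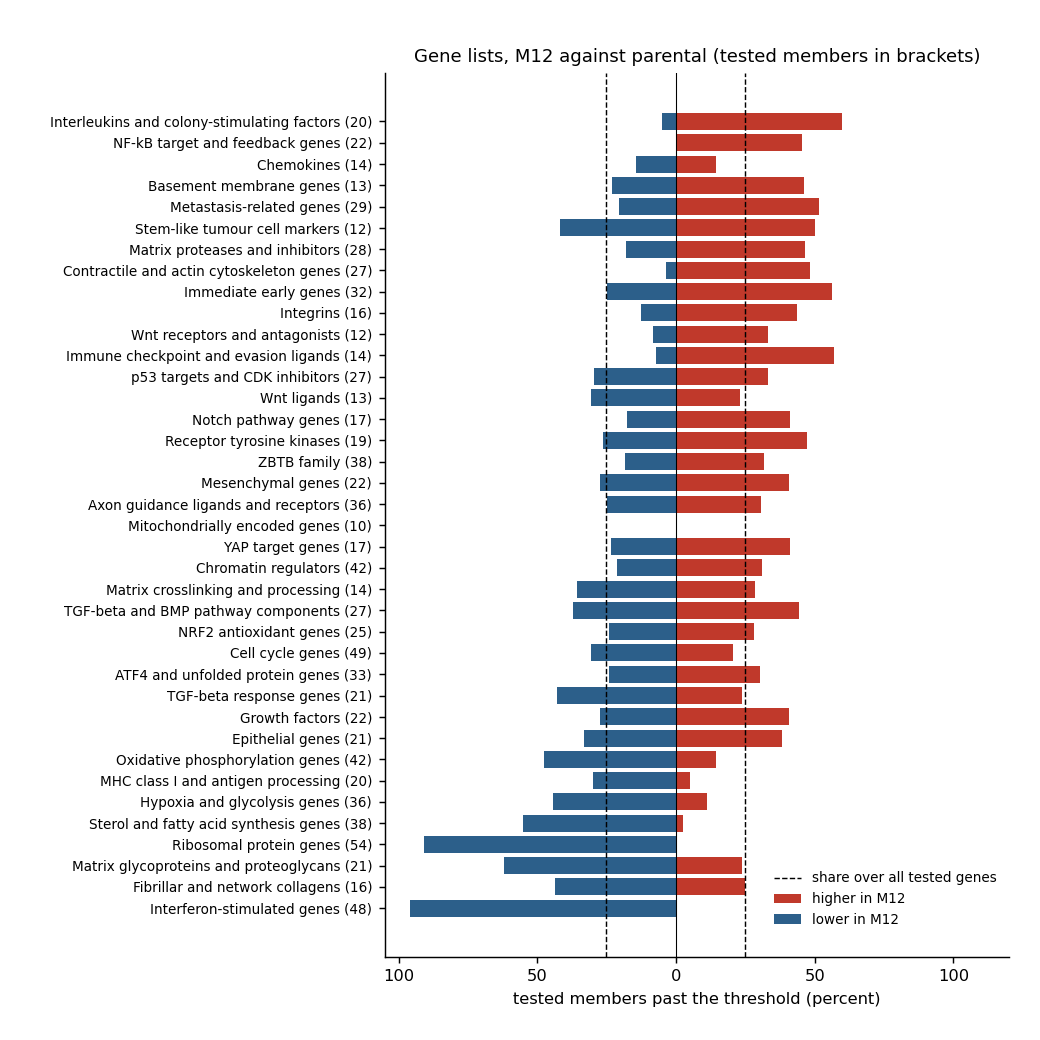
Share of the tested members of each gene list that were higher (red, to the right) or lower (blue, to the left) in M12 at an adjusted p under 0.05, for lists with at least 10 tested members, ordered by median log2 fold change. Dashed lines mark the shares over all tested genes, 24.9% higher and 25.2% lower, and the interferon-stimulated and ribosomal protein lists reach farthest to the left.

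Ribosomal protein genes were lower by a small amount in nearly all members. Of 54 tested, 49 were lower and none higher, with a median of -0.45, and 3 fell by a fold of 2 or more. Rpl17, a large subunit protein, had 590, 681 and 572 CPM in M12, against 1650, 1540 and 967 CPM in parental cells (log2 fold change -1.17, SE 0.17, adjusted p = 6.49e-06), and Rps14, of the small subunit, fell by 1.11. The summed level was 57400, 62100 and 56100 CPM in M12, against 90400, 89500 and 64800 CPM in parental cells, so parental replicate 3 lay nearest to M12. On log2(TPM + 1) there were 17 lower and 2 higher members. Against empty vector cells the direction turned, with 26 higher and 4 lower in M12, where 31.2% of all genes were higher and 29.5% lower.

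Sterol and fatty acid synthesis genes were higher in 1 and lower in 21 of 38 tested (TPM counts 3 and 12), 10 of them by a fold of 2 or more, with a median of -0.42. Fads2, a fatty acid desaturase, had 19.3, 14.6 and 23.3 CPM in M12, against 108, 107 and 78.4 CPM in parental cells (log2 fold change -2.36, SE 0.18, adjusted p = 2.14e-09). Mvd, a mevalonate pathway enzyme, had 12.7, 12.5 and 11.3 CPM in M12, against 43.6, 38.1 and 15.1 CPM in parental cells (-1.41), with parental replicate 3 near M12 as for the ribosomal genes. Acacb, which makes the malonyl-CoA that restrains fatty acid oxidation, was the 1 that rose (1.54, and 2.21 without parental replicate 1). Against M11, 4 of the list were lower in M12 and 6 were higher, where 17.7% of all genes were lower and 17.8% higher.

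Other housekeeping lists moved by little. Of 42 oxidative phosphorylation genes 6 were higher and 20 lower, none by a fold of 2, but the TPM counts turned to 8 higher and 4 lower. Of 36 hypoxia and glycolysis genes 4 were higher and 16 lower (TPM counts 5 and 7). The medians were -0.18 and -0.22, and 0.08 and 0.04 on log2(TPM + 1), both below the 0.17 of all genes. Cox4i1 and Ndufa4, subunits of the respiratory chain, fell by 0.66 and 0.68. The stress-responsive inhibitor of mTOR Ddit4 had 23.3, 43.9 and 32.7 CPM in M12, against 137, 103 and 82.5 CPM in parental cells (log2 fold change -1.69, SE 0.18). Of 49 cell cycle genes, 10 were higher and 15 lower with a median of -0.01. The TPM counts turned to 23 higher and 3 lower, with a median of 0.25, against the 0.17 of all genes. Cenpf, a kinetochore protein, rose by 1.13, E2f2, an S-phase transcription factor, fell by 1.25 and Cdk4 by 0.72. Mitochondrial reads were 2.42 to 2.63% of counts in M12 and 2.41 to 2.56% in parental libraries.

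The remaining stress lists were divided. Of 33 ATF4 and unfolded protein genes, 10 were higher and 8 lower (TPM counts 15 and 3), and 5 or 4 were lower without M12 replicate 1 or parental replicate 1. Ddit3 (CHOP), a stress-induced factor, had 21.5, 50.6 and 22.3 CPM in M12, against 18, 7.68 and 7.02 CPM in parental cells (log2 fold change 1.54, adjusted p = 0.00141), with M12 replicate 2 highest. Of 27 p53 targets and CDK inhibitors, 9 were higher and 8 lower (TPM counts 15 and 3), 5 lower without M12 replicate 2. Sesn1, a p53 target that restrains mTOR, fell by 1.27. Of 25 NRF2 antioxidant genes, 7 were higher and 6 lower (TPM counts 10 and 3). The glutathione transferase Gsta4 had 0.773, 1.5 and 1.08 CPM in M12, against 12.7, 14.3 and 10.6 CPM in parental cells (-3.46, SE 0.25), and the transketolase Tkt fell by 1.27.

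Of 42 chromatin regulators, 13 were higher and 9 lower (TPM counts 16 and 3). Nsd1, a histone H3 lysine methyltransferase, had 0.475, 0.0859 and 0.221 CPM in M12, against 13.3, 11.8 and 11.9 CPM in parental cells (log2 fold change -5.64, SE 0.38, adjusted p = 1.3e-10, and -6.31 without M12 replicate 1). It averaged 2.47 CPM in M11 and 11 CPM in empty vector cells. Hmga2, an architectural chromatin protein of embryonic and tumour cells, had 260.0, 206 and 202 CPM in M12, against 66.6, 69.8 and 92.7 CPM in parental cells (1.54, SE 0.12), and the histone demethylase gene Kdm5b rose by 1.6. These groups did not overlap.

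Some genes known as markers of other cells rose, while the defining leukocyte markers were near 0. In bulk samples, more cells of a type and more RNA per cell cannot be told apart. Of 8 tested blood and immune markers of 25 on the list, 5 were higher and none lower (2 lower without M12 replicate 1), and their summed list level was 49.7, 93.2 and 37.7 CPM in M12, against 17.2, 11.3 and 14.1 CPM in parental cells. Cd68, a lysosomal protein of macrophages, had 22.8, 69.4 and 18.4 CPM in M12, against 7.45, 2.8 and 4.29 CPM in parental cells (log2 fold change 2.94, and 2.1 without M12 replicate 2). Cd79a, a B-cell receptor chain, had 8.41, 7.95 and 7.7 CPM in M12, against 0.595, 0.251 and 0.454 CPM in parental cells (4.23, SE 0.33). The macrophage markers Adgre1, Itgam and Csf1r had 3, 10 and 14 reads over the M12 libraries, against 0, 6 and 8 over the parental ones, and Ms4a1, which marks B cells, had 0. Of 8 endothelial markers, 5 were higher and 1 lower (TPM counts 3 and 0, and 2 lower without M12 replicate 1), with a median of 2.03. The defining endothelial markers Cdh5 (VE-cadherin) and Pecam1 (CD31) were among those that rose, with 53 and 44 reads over the M12 libraries, against 8 and 14 over the parental ones. The part of endothelial cells in these rises was not tested. The summed level was 79.3, 57.8 and 84.8 CPM in M12, against 95.7, 95.9 and 114 CPM in parental cells, and nearly all of it was Eng, a TGF-beta co-receptor also found on other cells, which fell by 0.55. Fibroblast markers (2 higher and 2 lower of 6 tested, 1 lower without M12 replicate 1) summed to between 965 and 1040 CPM in M12, against 513 to 636 CPM in parental cells, with Dcn at 0 and a list median of 0.01. Most of that sum was Gsn, an actin-severing protein of many cell types (751, 767 and 621 CPM in M12, against 484, 443 and 371 CPM in parental cells), and Col3a1. Of 4 lung epithelial markers, 1 was lower, Napsa, a protease of alveolar cells, at no more than 0.132 CPM in M12. Of 6 mammary lineage genes, 1 was higher and 1 lower (TPM counts 2 and 1, 2 higher without M12 replicate 3, 2 lower without M12 replicate 1).

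The direct comparison with M11 asked which of these changes differ between the metastatic lines. Of the same 15432 genes, 2744 were higher (17.8%) and 2730 lower (17.7%) in M12 than in M11, 35.5% in all. By 2-fold or more, 742 were higher (4.81%) and 651 lower (4.22%), 9.03% together. Among officially named genes that changed in the same direction against both and reached 5 CPM in 1 group of each comparison, the largest rises in M12 over M11 were in Art3, Col8a1, Ccbe1, Tmem185b and Cd302. Art3 had 0 reads in every M11 library. Tmem185b, a membrane protein gene, had 7.55, 7.35 and 7.21 CPM in M12, against 0.0445, 0.0313 and 0.204 CPM in M11 (log2 difference 6.47, SE 0.48). By the same rule the largest falls were in Gas7, Tns1, Samd9l, Tle2 and Tenm4. Tns1 (tensin 1), which ties integrins to actin, had 2.7, 3.18 and 2.65 CPM in M12, against 92.9, 132 and 126 CPM in M11 (-5.36, SE 0.16, adjusted p = 5.8e-16). Tle2, a transcriptional corepressor, had 0.208, 0.258 and 0.75 CPM in M12, against 10.7, 13.7 and 8.18 CPM in M11 (-4.7, SE 0.42).

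Several of the largest rises over parental cells were present in M11 too. Hcls1 averaged 11.8 CPM in M11, Pik3ap1 6.64 CPM, Lrmp 22.1 CPM and Gldc 5.07 CPM, against 0.0912 CPM or less in every parental library. M12 was above M11 for Hcls1, Pik3ap1 and Gldc, and below M11 for Lrmp (log2 difference -0.78, adjusted p = 0.0151). Lrrn3 was higher in M12 by 0.93 without reaching the threshold (adjusted p = 0.0569), and reached it with the replicate number as a block (adjusted p = 0.0448). No label ties libraries of the same number together. The comparisons of M12 with parental cells and of M12 with M11 share the M12 libraries. Rises over parental cells did not all hold against empty vector cells. Csf1, Col3a1, Notch4, Cd44, Itgb3 and Actg2 were among those that did not pass there (log2 differences of -0.23 to 0.3), and Epcam was lower (-0.88). Adam19, Itgb2, Bmp7 and Il1r1 were among those that stayed higher, by 2.18 to 9.65.

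Changes were not even along the genome. On chromosome 1, 472 of 913 tested genes (51.7%) were higher and 100 (11%) lower, with a median log2 fold change of 0.39. On chromosome 19, 227 of 537 were higher and 57 lower (median 0.24), and on chromosome 3, 278 of 762 were higher and 113 lower (0.17). Chromosomes 6, 8 and 10 leaned the other way, with 90 higher and 329 lower of 734 (-0.3), 89 and 412 of 810 (-0.32), and 103 and 338 of 720 (-0.32). A median of -0.32 on chromosome 8 is a level of 0.798 of the parental one. On log2(TPM + 1), relative to the median of all genes, chromosome 1 stood at 0.29 and chromosomes 6, 8 and 10 at -0.19, -0.22 and -0.2.

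The 3 M12 libraries gave nearly the same chromosome medians. On chromosome 1 they stood at 0.4 each, relative to the parental mean, against 0.36 to 0.38 in M11 and 0.22 to 0.3 in empty vector cells, so the higher level was shared by the 3 groups. On chromosome 6 they stood at -0.34, -0.34 and -0.33, against -0.04 to 0.03 in M11. On chromosome 8 they stood at -0.37, -0.33 and -0.34, against -0.05 to 0.03 in M11, and on chromosome 10 at -0.33, -0.33 and -0.29, against -0.11 to -0.08 in M11. In M11, in turn, chromosome 5 was low (-0.35 to -0.27) where M12 lay between -0.02 and 0.05. DNA copy number was not measured here. Examples among the genes described above are Col6a1, Col6a2, Hmga2, Tle2 and Itgb2 on chromosome 10, and Col6a3, Prrx1, Ptgs2 and Zbtb18 on chromosome 1. Others described above lie there too, and the part of the chromosome in their changes was not tested.

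**Figure D5:**
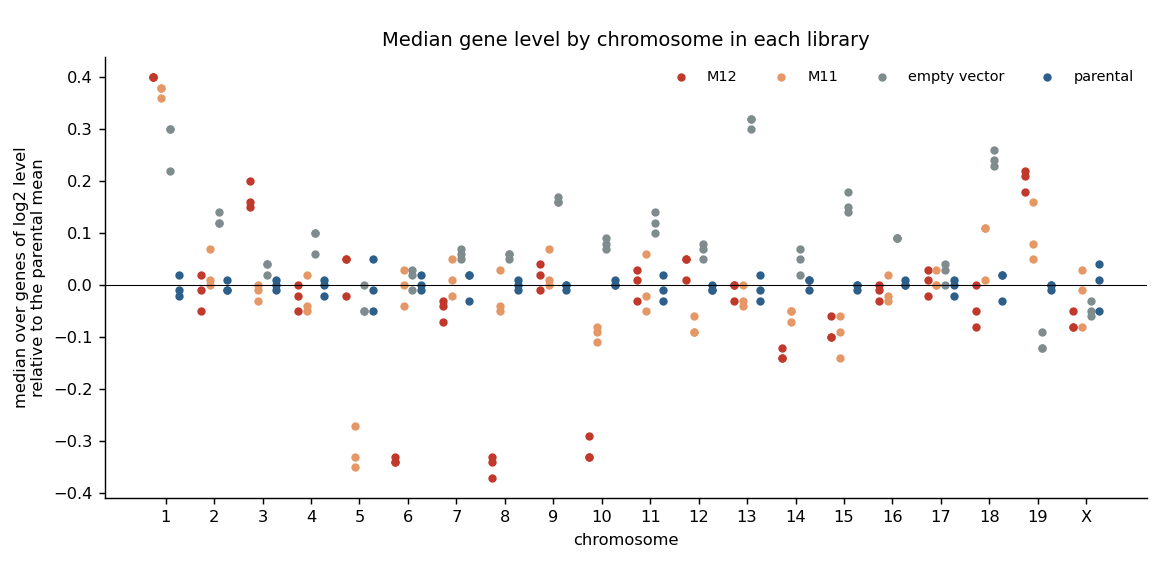
Median over well-expressed genes of the log2 level in each library, minus the mean of the 3 parental libraries, for each autosome and the X chromosome. Each point is a library of M12, M11, empty vector or parental cells, and M12 points lie near 0.4 on chromosome 1 and between -0.37 and -0.29 on chromosomes 6, 8 and 10.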

How the data were processed

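RNA was sequenced from cultured cells, 3 libraries in each of 7 groups, and groups were read from the sample titles. The authors deposited RSEM expected counts per gene without normalisation. The deposited TPM are corrected for gene length and have a fixed sum per library. The deposited FPKM were not used here. RSEM, GATK 4.1.2.0, STAR 2.7.1a and Trim Galore, with build mm10, are named per the submitters' processing notes. The table held 55573 genes, 99.14% of them in GENCODE vM21, the annotation used for positions, and 92 spike-in entries with 0 reads. Counts were rounded (1.28% of values were not whole). RSEM shares reads between similar genes, so levels of close relatives such as the Oas, Ifit and Gbp families depend on that sharing.

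Counts were fitted in R 4.3.3 with edgeR 4.0.16 (TMM, the package's filter by group, quasi-likelihood F-test with robust spread) over all 21 libraries with 1 mean per group (14 residual degrees of freedom). All tests were two-sided and used Benjamini-Hochberg adjustment over 15432 genes and a threshold of 0.05. The fit was also run on simulated counts with the same spread for every gene and group. Replicate spread differed between the real groups, so that run checked the code only. A log2 fold change is M12 minus the other group, and its SE is its size over the square root of F. Where parental cells had 0 reads the fold is a bound against 3 counts over the group. With 1 to 3 reads the ratio has an exact 95% conditional binomial interval, which covers counting error only.

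The genes and lists were chosen with earlier results of these data known. Named are the 12 highest and 12 lowest fold changes among officially named genes that passed, changed 2-fold or more, reached 5 CPM in 1 group and had groups without overlap, Wnt5a, Col8a1, Cxcl2, Zbtb18, Tgfbr2 and Tgfbr1, up to 2 members in each direction of each list with at least 1 CPM, the 5 most different from M11 in each direction (2-fold or more and the same sign against parental cells, and 5 CPM in the higher group of both comparisons), and the 5 most abundant genes switched on or off (at least 2 against under 0.1 CPM). Ifnar1, Ifnar2, Tyk2, Irf3, Irf7, Irf9, Stat2, Oasl1, Gbp2, Isg15, Ifit1, Nfkbia, Il1r1, Col6a1, Dusp1, Dusp4, Dusp5, Itgal, Plau, Mmp9 and Gm42418 were added after their values were seen. Of these, Ifnar1, Ifnar2, Tyk2, Irf3, Il1r1 and Gm42418 joined the named set. The alternative runs gene by gene and the promoter shares of named genes cover that set, and not the other added genes. Some selected genes are not reported here. Same-numbered M12 and M11 libraries deviated together from their group means (correlations 0.258, 0.581 and 0.394). Correlations of similar size arose between differently numbered M12 and parental libraries (0.49 and 0.361), so these values cannot show a pairing. The replicate block, 1 effect per replicate number shared by all 7 groups, was run as an alternative only. Alternatives used DESeq2 1.42.0 and limma 3.58.1.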

Additional observations from a re-analysis of the deposited data

Results flagged for a closer look

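For 9 of the named genes, M12 and M11 moved in opposite directions from the parental line, and the difference between the lines, tested in the same edgeR fit, passed the threshold. Cd302, a lectin-like receptor gene, had 11.3, 13.7 and 10.1 CPM in M12, against 0.2, 0.0939 and 0.0814 CPM in M11 (log2 difference 6.4), with parental cells between them at 2.1, 1.96 and 1.68 CPM. For Tgfbr1 the difference was 1.1, with M12 above and M11 below parental cells. For the other 7 genes M12 was below parental cells and M11 above them. The log2 difference between M12 and M11 was -0.99 for Col4a2, whose change from parental cells did not pass without M12 replicate 2 or parental replicate 3, -3.53 for Egr3, -5.85 for Gas7, -2.75 for Itgb4, -4.37 for S100a4, -4.48 for Tenm4 and -5.36 for Tns1. S100a4 had 17.2, 10.4 and 18.6 CPM in M12, against 300.0, 415 and 239 CPM in M11 and 52.8, 76.8 and 64.3 CPM in parental cells. Gas7, a cytoskeletal adaptor gene, had 0.505, 0.516 and 0.485 CPM in M12, against 24.2, 31.8 and 31.3 CPM in M11 and 11.4, 10.4 and 11.2 CPM in parental cells. Tenm4, a teneurin adhesion receptor gene, had 2.47, 2.21 and 8.14 CPM in M12, against 76.5, 95.2 and 119 CPM in M11. The 3 groups did not overlap for Cd302, S100a4, Gas7 or Tenm4.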

How the results depend on the processing

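Of 173 named calls against parental cells, none reversed under any alternative run, and between 162 and 173 of those with a value stayed past the threshold. Added genes outside the named set, such as Nfkbia, Isg15, Irf7, Plau and Col6a1, were not covered by this count. Fitting the 6 libraries of a comparison alone gave 5113 calls for M12 against parental cells and 3497 for M12 against M11, with fewer samples behind the spread. The groups also differed in spread. The median SD of log2 level between replicates was 0.187 in M12, 0.179 in M11 and 0.198 in parental cells. It was 0.094 to 0.111 in the other groups. The main fit draws its spread from all groups, so its number of calls rests in part on the less variable ones. On log2(TPM + 1), genes with a fold of 2 or more numbered 1151 and 467, since that pseudocount shrinks folds of low genes. On log2(TPM + 0.1), 5576 genes were higher and 1586 lower than in parental cells (77.9% of calls higher). For M12 against M11 the share higher was 59.8% and 58.9% on the TPM scales, against 50.1%. Leaving out 1 library at a time gave 6797 to 7976 calls against parental cells (2272 to 2534 with a fold of 2 or more) and 4715 to 5341 against M11 (1326 to 1563). With the replicate block there were 8010 calls against parental cells (2362 with a fold of 2 or more) and 5857 against M11 (1404). Same-numbered M12 and parental libraries had correlations of -0.36, 0.148 and 0.398, which do not show a pairing by number. The block changed the call against M11 for Hdac11, Lrrn3, Trp53inp1 and Zbtb10 and for no other named gene. DESeq2, limma-voom, other scalings and filters, and leaving out Gm42418 gave counts of all calls, and of calls of 2-fold or more, within 1.5 times those reported. Split by direction, the exception among these was a filter at 1 CPM, with 487 genes 2-fold higher in M12 than in M11, against 742. Among the small lists, DESeq2 called 4 chemokines higher, against 2, and that filter left 2 endothelial markers higher, against 5. Within lists, the fit to 6 libraries alone lowered the ribosomal protein genes called lower to 26, the sterol genes to 12 and the cytokines called higher to 5. With no filter on low counts, 7 chemokines and 16 NF-kB genes were higher. Genes near 0 reads in 1 group are the least certain in size.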
